A study of Mus musculus with 6 samples.

Results

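The loci of Bmp2, Bmp4, Bmp7 and Nog were examined in ATAC-seq data, which measure how accessible chromatin is to the Tn5 transposase, from distal forelimb buds of mouse embryos. A peak of the deposited table belonged to a locus when its midpoint lay inside the gene or within 300 kb of its GENCODE transcription start site in the mm10 assembly. Of the 61954 peaks, 134 met this rule, 35 at Bmp2, 26 at Bmp4, 46 at Bmp7 and 27 at Nog. The loci were chosen with earlier results of these data known, and every peak at them is accounted for, whether or not it differed. The comparison was between wild-type (WT) embryos and Hox13-/- embryos, in which both Hoxa13 (allele Hoxa13Str) and Hoxd13 (allele Hoxd13lacZ) are inactivated, with 2 libraries per genotype. All 4 libraries came from distal forelimb at E11.5 in a mixed C57Bl/6 and 129 background, and each was made from 50000 cells of 1 embryo, with its left and right buds pooled. The alleles are inactive in the whole embryo and the tissue was profiled in bulk, so fewer accessible cells and less access per cell cannot be told apart. RNA was not measured in these libraries.

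BMPs are secreted ligands of the TGF-beta superfamily that bind type I and type II serine/threonine kinase receptors, which phosphorylate SMAD1, SMAD5 and SMAD9 and let them enter the nucleus with SMAD4. In the limb bud Bmp2, Bmp4 and Bmp7 are expressed in mesenchyme and in the apical ectodermal ridge, where they restrain ridge signalling, pattern the digits, start cartilage condensation and drive the removal of interdigital cells. Noggin, the product of Nog, is a secreted antagonist that binds BMPs and keeps them from their receptors, and it is needed for joint formation. HOXA13 and HOXD13 are the most posterior HOX transcription factors of the limb and are expressed in the future hand and foot plate.

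The sequences below are the central 200 bp of the peaks on which the comparison turned, namely the Bmp2 peaks at +41.9 and +114.6 kb of its start and, at each other locus, the peak with the lowest p. All read 5′ to 3′ on the plus strand of GRCm38 (mm10), and all 5 peaks were lower in Hox13-/-. Capitals mark any of 8 heptamers, or their reverse complements, that end in TAAA and lie around the motif of posterior HOX proteins. The shorter list consists of the word CAATAAA, the word TAATAAA and the word TCGTAAA. The longer list adds the word CAGTAAA, the word CCATAAA, the word CCGTAAA, the word TAGTAAA and the word TCATAAA. The first 2 sequences lie at chr2:133593915-133594114 and chr2:133666649-133666848, both intergenic and downstream of Bmp2. The others lie at chr14:46679745-46679944 in an intron of the noncoding gene Gm48917, at chr2:172851827-172852026 in intergenic sequence past the 3′ end of Bmp7, and at chr11:89421619-89421818 in an intron of Ankfn1.
Bmp2 +41.9 kb: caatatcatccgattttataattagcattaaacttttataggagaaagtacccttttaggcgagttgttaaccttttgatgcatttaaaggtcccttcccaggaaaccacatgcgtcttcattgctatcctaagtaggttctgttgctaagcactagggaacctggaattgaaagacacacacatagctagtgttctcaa
Bmp2 +114.6 kb: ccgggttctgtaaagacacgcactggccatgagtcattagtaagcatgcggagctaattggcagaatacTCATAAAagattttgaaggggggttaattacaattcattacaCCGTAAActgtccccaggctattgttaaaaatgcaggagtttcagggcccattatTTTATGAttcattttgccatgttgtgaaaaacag
Bmp4 -289.2 kb: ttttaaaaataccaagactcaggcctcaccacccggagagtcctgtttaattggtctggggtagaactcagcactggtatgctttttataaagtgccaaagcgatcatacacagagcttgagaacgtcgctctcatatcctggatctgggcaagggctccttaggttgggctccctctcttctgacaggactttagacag
Bmp7 +88.4 kb: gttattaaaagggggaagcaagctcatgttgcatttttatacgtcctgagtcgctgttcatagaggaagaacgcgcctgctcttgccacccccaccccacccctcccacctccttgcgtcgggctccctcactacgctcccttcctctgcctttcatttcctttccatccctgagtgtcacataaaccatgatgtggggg
Nog -119.4 kb: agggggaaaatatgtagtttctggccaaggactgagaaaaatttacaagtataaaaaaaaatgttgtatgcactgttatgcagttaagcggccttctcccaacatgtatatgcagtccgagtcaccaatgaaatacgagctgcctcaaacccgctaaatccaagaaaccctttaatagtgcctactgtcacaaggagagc
Only Bmp2 +114.6 kb held marked heptamers, which were TCATAAA at base 70, CCGTAAA at base 112 and TTTATGA, the reverse complement of TCATAAA, at base 167 of the window. This list of 8 heptamers was chosen after the sequences had been seen, because none of the 5 windows held any of the 3 words of the shorter list.

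Accessibility was given as rLog, a log2 read count scaled for library size and shrunk towards the mean of each peak. A difference of 1 is a 2-fold change of these shrunken values, and all fold changes given here are of that kind. They can be smaller than the fold changes in reads. Differences are Hox13-/- minus WT, and values of libraries are given as replicate 1 and then replicate 2. They were tested with limma over all 61954 peaks with Benjamini-Hochberg adjustment, and a peak is called lower or higher when its adjusted p was under 0.05. In this fit the spread was set by the mean signal alone (prior degrees of freedom infinite for all peaks), so the replicate values of each peak are given beside its test. With 2 libraries against 2 the smallest two-sided exact permutation p for a single peak is 0.33.

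Peaks at the 4 loci differed in both directions. Over the 134 peaks 16 (11.9%) were lower in Hox13-/-, beside 8.31% of all peaks in the table, and 18 (13.4%) were higher, beside 11.4%. The remaining 100 peaks had no call. Of all calls over the 61954 peaks, 57.8% were higher, a share that was 46.9% when each library was centred on its median. At the 4 loci this centring gave 19 lower and 16 higher peaks. Beyond a fold change of 1.5 there were 7 lower peaks (1.56% of all peaks passed) and 6 higher peaks (3.33%). Beyond a fold change of 2 there were 2 lower peaks, beside 0.224% of all peaks, and 0 higher peaks, beside 0.313%. The median difference was 0.018 over the 134 peaks and -0.005 over all peaks. Without any test, both Hox13-/- libraries lay below both WT libraries at 37 peaks (27.6%, beside 29.6% of all peaks) and above them at 44 peaks (32.8%, beside 29.7%). All 34 called peaks were among these. In the whole table the libraries were likewise apart at 98.4% of lower and 99.6% of higher calls, so the separation adds little to a call. Without Hox13-/- replicate 1 or without WT replicate 1 the count of higher peaks was 10 in each case.

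**Figure D1:**
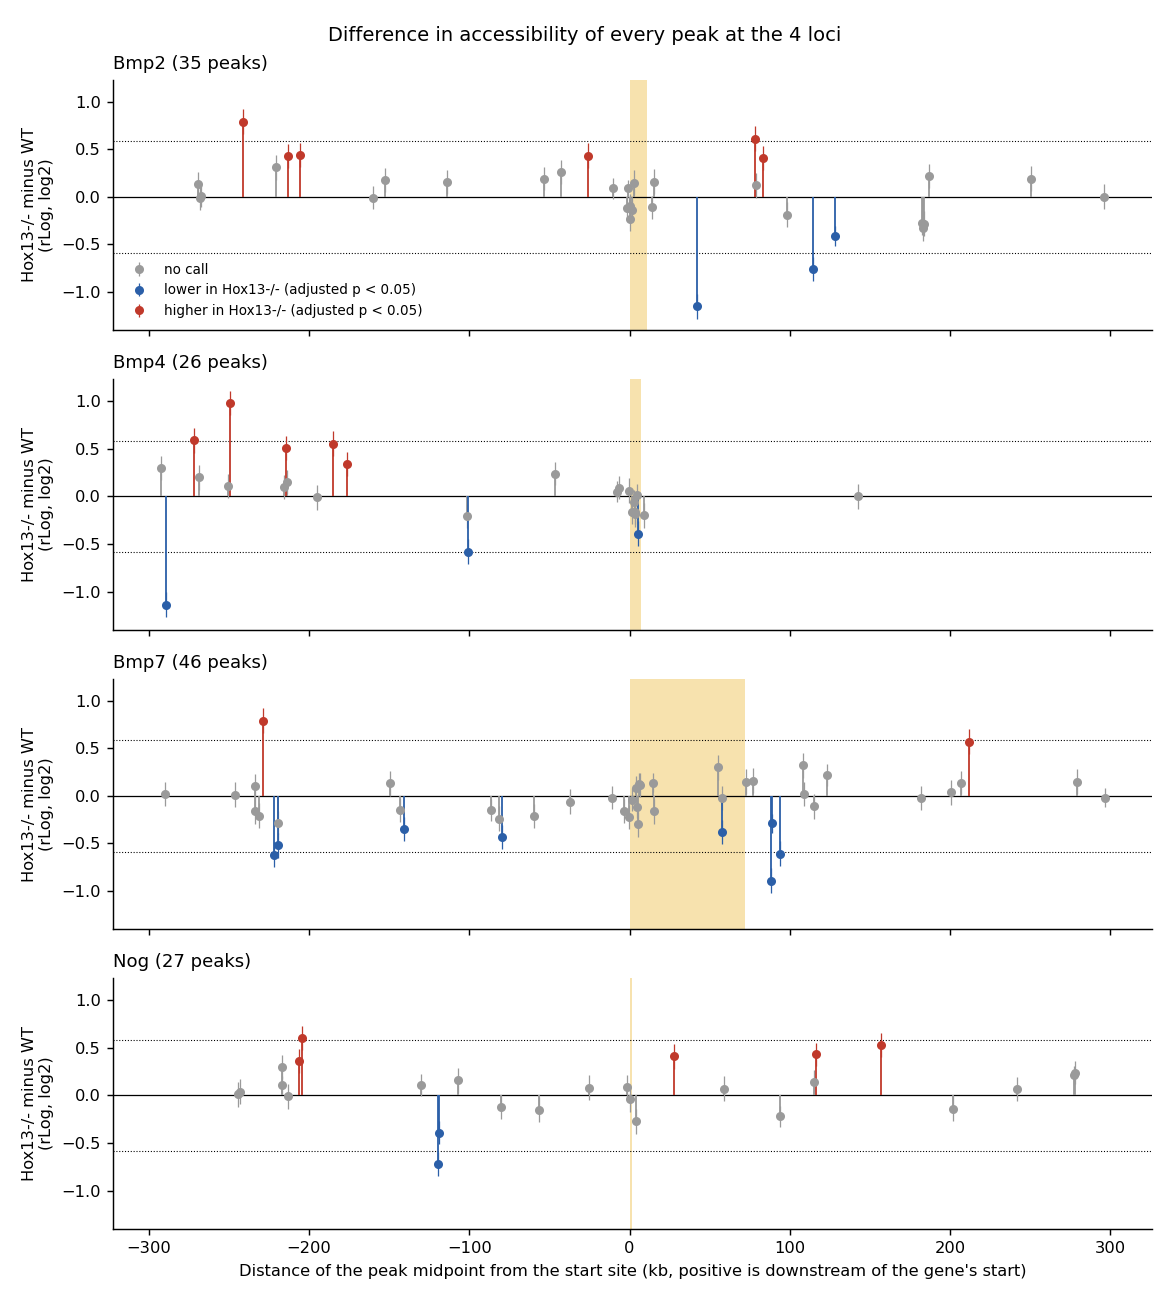
Difference in rLog (Hox13-/- minus WT) of every peak against the distance of its midpoint from the start site of Bmp2, Bmp4, Bmp7 or Nog, in kb. Bars on the points are the standard error of the difference from limma, the shaded band is the gene, and the dotted lines are log2 of 1.5. The 2 differences below -1 are Bmp2 +41.9 kb (-1.15) and Bmp4 -289.2 kb (-1.14), and the called peak nearest to a start site is Bmp4 +5.4 kb.

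The balance of the directions was not the same at each locus. Bmp7 had 8 lower and 2 higher peaks of 46, whereas Bmp2 had 3 lower and 6 higher of 35, Bmp4 3 lower and 5 higher of 26, and Nog 2 lower and 5 higher of 27. These counts were not tested against each other, and they changed when single libraries were left out, as given for each locus below. The windows also differ in the starts of other coding genes they hold, 0 at Bmp2, 1 at Bmp4, 6 at Bmp7 and 2 at Nog. A peak counted at a locus was not shown to act on its gene. Beyond a fold change of 1.5 Bmp7 had 3 lower and 1 higher peaks. At that threshold Bmp2 had 2 and 2, Bmp4 had 1 and 2, and Nog had 1 and 1. By position, 9 of the 32 peaks lying 200 to 300 kb upstream of a start were higher and 3 were lower, while the 32 peaks inside a gene or within 10 kb of a start held 2 lower and 0 higher peaks. Beyond 20 kb from the starts 15 of 101 peaks were lower (14.9%) and 18 were higher (17.8%). In the whole table, peaks within 1 kb of the start of any transcript of the GENCODE basic set were counted as peaks at gene starts. They were lower in 8.41% and higher in 1.86% of 19644 cases, and peaks away from starts in 8.26% and 15.8% of 42310. Of the 134 peaks 117 lay away from starts by this count, and of these 12.8% were lower and 14.5% were higher. They include Bmp7 -37.2 kb, which lies at -0.1 kb from the start of the gene record of Spo11.

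Bmp2, on chromosome 2 (chr2:133552159-133562885, plus strand), encodes a ligand expressed in limb mesenchyme and later between the digits, and no other coding gene starts within 300 kb of it. The peak 41.9 kb downstream of its start (chr2:133593825-133594203) had rLog values of 5.21 and 5.45 in WT and 4.24 and 4.11 in Hox13-/-. The groups did not overlap, and both Hox13-/- libraries were low. The difference was -1.15 ± 0.131 (SE, n = 2 per genotype; limma adjusted p = 5.3e-16), or 2.22-fold lower. MACS2 had called it as a peak in 2 WT libraries and in 0 Hox13-/- libraries. The peak 114.6 kb downstream (chr2:133666263-133667234), 972 bp long and among the more accessible of the locus, had values of 7.30 and 7.26 in WT and 6.26 and 6.78 in Hox13-/-. Both Hox13-/- libraries were below WT, but they lay further from each other than the WT libraries did. Its difference was -0.76 ± 0.127 (limma adjusted p = 1.1e-07), or 1.69-fold lower. It came to -0.50 (adjusted p = 0.019) without Hox13-/- replicate 1 and to -1.02 without Hox13-/- replicate 2.

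Between these lower peaks the Bmp2 locus held higher ones. At +78.5 kb, 36.6 kb from the first and 36.1 kb from the second, the values were 4.96 and 4.77 in WT and 5.44 and 5.50 in Hox13-/-, a difference of 0.61 ± 0.131 (limma adjusted p = 7.5e-05) without overlap of the groups. The neighbouring peak at +83.5 kb was also higher, by 0.41. The higher peak with the lowest p lay at -241.0 kb, upstream (chr2:133310861-133311366), with 5.08 and 5.30 in WT and 5.97 and 6.00 in Hox13-/-. It was 0.79 ± 0.13 higher (limma adjusted p = 7.7e-08), and MACS2 had called it in both Hox13-/- libraries and in 0 WT libraries. Further upstream peaks at -213.2 kb (0.43), -205.5 kb (0.44) and -26.2 kb (0.43) were called too. Of the 16 upstream peaks 4 were higher (25%) and 0 were lower, beside 11.4% and 8.31% of all peaks. Away from starts these shares were 15.8% and 8.26%, and the upstream counts were not tested against them. Without Hox13-/- replicate 1 the locus kept 2 higher calls, those at -241.0 and +78.5 kb, and without WT replicate 1 it kept 3. The peak at -213.2 kb gave 0.25 without Hox13-/- replicate 1, and that at -205.5 kb lost its call without WT replicate 2 as well. The last lower peak, at +128.1 kb (-0.41), was not called without WT replicate 1 (-0.25).

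The peaks at the Bmp2 start site and the most accessible peak of the locus were not called. The peak over its first exon at +0.2 kb had 5.83 and 5.59 in WT and 5.63 and 5.35 in Hox13-/-, and the groups overlapped. Its difference was -0.23 (95% interval -0.48 to 0.03, limma adjusted p = 0.22), and that of the weaker first-exon peak at +0.6 kb was -0.10 (-0.35 to 0.14). The peak with the highest mean rLog, at +14.2 kb, had 7.86 and 7.91 in WT and 7.74 and 7.80 in Hox13-/-. The libraries did not overlap, but the difference of -0.11 (-0.35 to 0.13) was not called. A cluster of 3 peaks at +182.6, +182.9 and +183.7 kb gave -0.27, -0.33 and -0.28, none of which passed the adjustment.

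**Figure D2:**
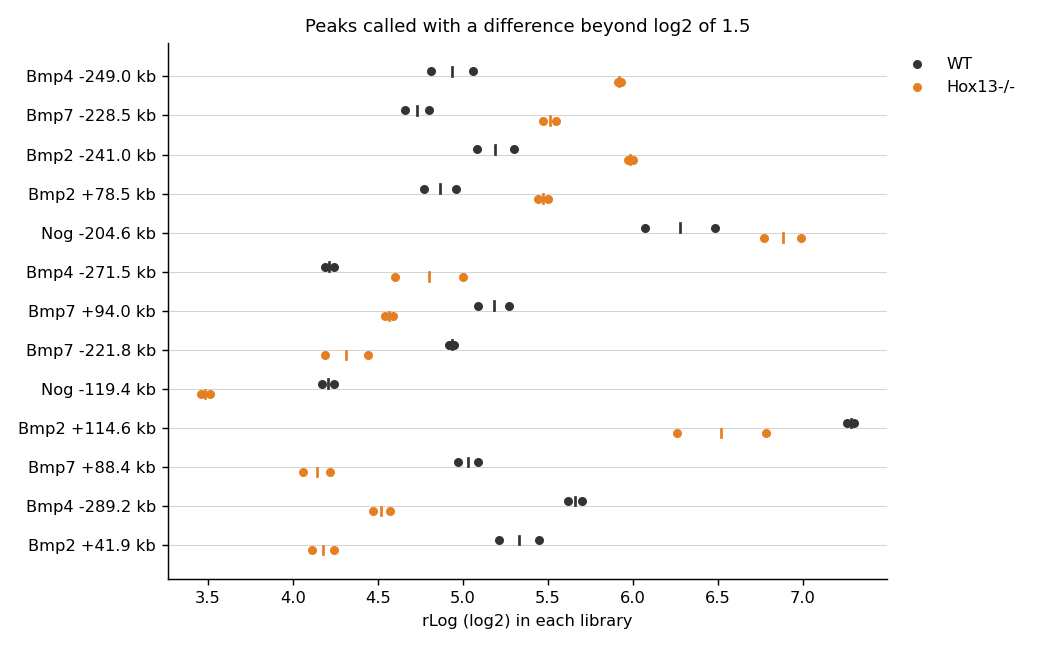
rLog in each library (points, with a short line at the mean of the genotype) of the 13 peaks that were called with a difference beyond log2 of 1.5, ordered by difference. In each of the 13 the WT and Hox13-/- points do not overlap, and the widest spread within Hox13-/- is that of Bmp2 +114.6 kb (6.26 and 6.78). Lack of overlap was the rule for called peaks of the whole table (98.4% of lower and 99.6% of higher calls).

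Bmp4, on chromosome 14 (chr14:46383520-46390669, minus strand), encodes a ligand needed in early limb mesenchyme and ridge. Its locus was asymmetric, with 18 of the 26 peaks upstream, and all 5 of its higher peaks lay upstream, from -271.5 to -176.5 kb. The lowest p belonged to the peak at -289.2 kb (chr14:46679679-46680009), inside the noncoding gene Gm48917, with values of 5.70 and 5.62 in WT and 4.47 and 4.57 in Hox13-/-. The libraries of each genotype lay close together and the groups did not overlap. The difference was -1.14 ± 0.131 (limma adjusted p = 1.4e-15), or 2.20-fold lower. MACS2 had called it in 2 WT libraries and 0 Hox13-/- libraries. The nearest coding start to it was that of Cdkn3, from which it lay at -80.7 kb.

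Only 17.7 kb from this lower peak, the peak at -271.5 kb was higher in Hox13-/-. It had 4.19 and 4.24 in WT and 5.00 and 4.60 in Hox13-/-, a difference of 0.59 ± 0.13 (limma adjusted p = 1.3e-04), which was 0.39 and not called (adjusted p = 0.088) without Hox13-/- replicate 1. The peak at -249.0 kb (chr14:46639496-46639922) had 5.06 and 4.81 in WT and 5.91 and 5.93 in Hox13-/-. The groups stood well apart, and its difference of 0.98 ± 0.13 (limma adjusted p = 7.4e-12), 1.98-fold, was the largest increase at the 4 loci. The peak at -214.5 kb, called by MACS2 in all 4 libraries, rose from 7.22 and 7.26 in WT to 7.74 and 7.76 in Hox13-/- (0.51). The higher peaks at -271.5, -249.0 and -214.5 kb also lay nearer to the start of Cdkn3 than to that of Bmp4. Peaks at -184.8 kb and -176.5 kb were higher by 0.55 and 0.34. The first of these was 0.31 and not called without Hox13-/- replicate 1, nor was it called without WT replicate 2, and the second was not called when any of the 4 libraries was left out or under median centring.

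Near the Bmp4 gene 1 peak was called. The start-site peak at -0.1 kb had 5.81 and 5.77 in WT and 5.88 and 5.82 in Hox13-/-, a difference of 0.06 (95% interval -0.20 to 0.31, limma adjusted p = 0.79). The peak with the highest mean rLog, at -46.2 kb, had 7.43 and 7.33 in WT and 7.81 and 7.43 in Hox13-/-, with a difference of 0.24 (0.00 to 0.49, adjusted p = 0.16) that rested on replicate 1. It was 0.44 (adjusted p = 0.049) without Hox13-/- replicate 2 and 0.05 without Hox13-/- replicate 1. An intronic peak at +5.4 kb was lower, with 6.20 and 6.23 in WT and 5.84 and 5.82 in Hox13-/- (-0.39, adjusted p = 0.018), though its call needed all 4 libraries. The remaining lower peak, at -100.5 kb, gave -0.58, just short of log2 of 1.5, and -0.36 without WT replicate 1, which left the locus with 1 lower call. Its count of higher calls was 2 without Hox13-/- replicate 1 and 3 without WT replicate 2. The farthest peak downstream of its start lay at +142.3 kb (0.00).

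Bmp7, on chromosome 2 (chr2:172868012-172940321, minus strand), encodes a ligand expressed in ridge and distal mesenchyme, and its 72.3 kb gene held 11 of the 46 peaks of its locus. The window also held the starts of 6 other coding genes, Ctcfl, Pck1, Rae1, Rbm38, Spo11 and Zbp1. The decrease with the lowest p lay 88.4 kb from the start (chr2:172851756-172852097), past the end of the gene. Its values were 5.09 and 4.97 in WT and 4.22 and 4.06 in Hox13-/-, with both Hox13-/- libraries low. The difference was -0.89 ± 0.131 (limma adjusted p = 1.0e-09), or 1.85-fold lower. At +94.0 kb a further peak had 5.27 and 5.09 in WT and 4.54 and 4.59 in Hox13-/- (-0.61 ± 0.131, adjusted p = 6.5e-05). MACS2 had called both of these in the 2 WT libraries and in 0 Hox13-/- libraries. A weak peak adjoining the first at +88.8 kb gave -0.29. Of the 5 peaks lying 50 to 100 kb downstream and outside the gene 3 were lower, beside 8.31% of all peaks. The call at +88.8 kb was lost with no variance trend, without Hox13-/- replicate 2 and without WT replicate 1 (-0.22).

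Upstream of Bmp7 a lower and a higher peak were neighbours 6.7 kb apart. The peak at -221.8 kb had 4.92 and 4.95 in WT and 4.44 and 4.19 in Hox13-/- (-0.62 ± 0.131, limma adjusted p = 4.9e-05). The peak at -228.5 kb (chr2:173168570-173169080) had 4.66 and 4.80 in WT and 5.55 and 5.47 in Hox13-/- (0.79 ± 0.131, adjusted p = 1.1e-07). Neither pair of groups overlapped, and MACS2 had called the first only in the 2 WT libraries and the second only in the 2 Hox13-/- libraries. Both were nearer to the start of Pck1, at +9.1 and +15.8 kb from it, than to that of Bmp7. The peak at -219.3 kb, +6.6 kb from the start of Pck1, was lower too (-0.52), though not called without Hox13-/- replicate 2 or WT replicate 2. At the other end of the locus the peak at +211.8 kb was higher, with 6.18 and 6.44 in WT and 6.93 and 6.83 in Hox13-/- (0.57). The coding start nearest to it was that of Tfap2c.

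The start site of Bmp7 was among its most accessible peaks, with 7.28 and 7.32 in WT and 7.01 and 7.14 in Hox13-/-. Both Hox13-/- libraries were below WT, but the difference of -0.22 (95% interval -0.47 to 0.03, limma adjusted p = 0.22) was not called. The highest mean in the window belonged to the start of Rae1 at -59.8 kb, with 7.70 and 7.49 in WT and 7.39 and 7.38 in Hox13-/- (-0.21, -0.45 to 0.04). A peak 0.5 kb from the start of Rbm38 was lower (-0.43), as were peaks at -140.8 kb (-0.35), nearest to the start of Ctcfl, and, inside Bmp7, at +57.8 kb (-0.38). The call at Rbm38 was lost without Hox13-/- replicate 1 or WT replicate 2, and that at -140.8 kb when any of the 4 libraries was left out. The peak at +57.8 kb gave -0.24 without Hox13-/- replicate 2 and was not called, nor was it called without either WT library. The count of lower peaks was 4 without WT replicate 2 and 5 without Hox13-/- replicate 2. At the 4 peaks beyond log2 of 1.5 and at +211.8 kb no left-out library ended a call.

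**Figure D3:**
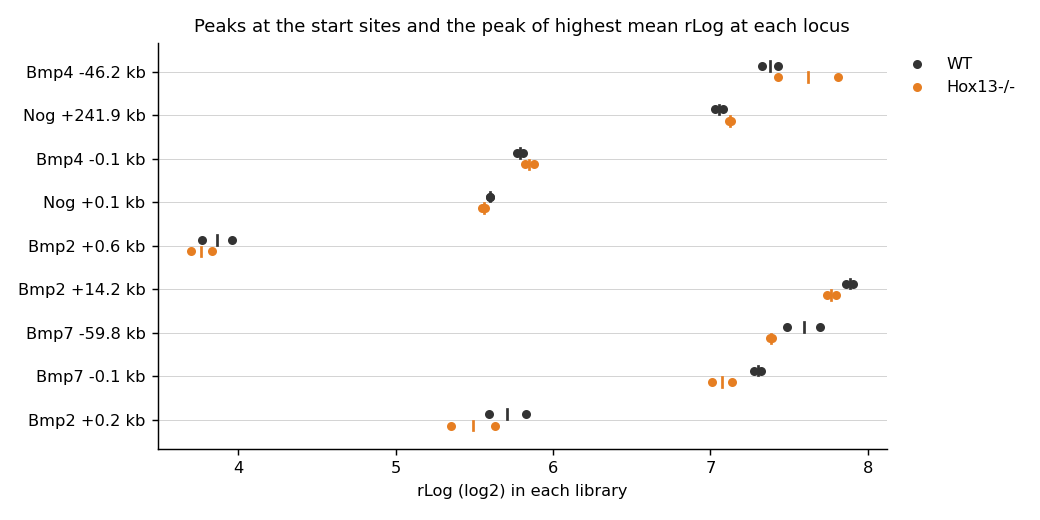
rLog in each library (points, with a short line at the mean of the genotype) of the 5 peaks within 1 kb of the start of Bmp2, Bmp4, Bmp7 or Nog and of the peak with the highest mean rLog at each locus. Differences run from -0.23 at Bmp2 +0.2 kb to 0.24 at Bmp4 -46.2 kb, and none of the 9 peaks was called.

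Nog, on chromosome 11 (chr11:89300638-89302332, minus strand), is a short gene of 1.7 kb with a single peak inside it. That peak, at +0.1 kb, had 5.60 in both WT libraries and 5.55 and 5.57 in Hox13-/-, a difference of -0.04 (95% interval -0.29 to 0.22, limma adjusted p = 0.86). All 7 called peaks of the locus lay farther out, from -206.5 to +156.8 kb. The peak at -119.4 kb (chr11:89421609-89421828), in an intron of Ankfn1, had 4.24 and 4.17 in WT and 3.46 and 3.51 in Hox13-/-, without overlap and with little spread in either genotype. It was lower by -0.72 ± 0.126 (limma adjusted p = 4.5e-07), or 1.65-fold. A peak over an exon of Ankfn1 beside it, at -118.9 kb, gave -0.39 and was not called without Hox13-/- replicate 1 or WT replicate 1.

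The higher peaks of the Nog locus lay on both sides of the gene. At -204.6 kb the values were 6.48 and 6.07 in WT and 6.99 and 6.77 in Hox13-/-, a difference of 0.60 ± 0.128 (limma adjusted p = 5.2e-05). The WT libraries lay further apart here than at the other changed peaks of the locus, and without WT replicate 2 the difference was 0.40 (adjusted p = 0.055). Its neighbour at -206.5 kb was higher by 0.36, a call lost under median centring, under quantile normalization and without Hox13-/- replicate 2 (0.23), WT replicate 1 or WT replicate 2. Downstream, peaks at +27.9 kb (0.41), +116.3 kb (0.43) and +156.8 kb (0.53) were higher. The peaks at +116.3 and +156.8 kb lay nearer to the start of Gm525 than to that of Nog. Of the 12 downstream peaks 25% were higher and 0 were lower, beside 11.4% and 8.31% of all peaks. Away from starts these shares were 15.8% and 8.26%. With so few peaks, 0 lower is not set apart from the share of the table. The count of 5 higher peaks was 1 without WT replicate 1 and 3 without WT replicate 2 or without Hox13-/- replicate 2, and the count of lower peaks was 1 without Hox13-/- replicate 1. The peaks at +27.9, +116.3 and +156.8 kb each lost the call without WT replicate 1, where the first gave 0.26. The most accessible peak of the window, over an exon of Dgke at +241.9 kb, had 7.08 and 7.03 in WT and 7.13 and 7.12 in Hox13-/- (0.07).

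At the edge of the windows, the nearest peaks outside 300 kb were at -415.3 kb (0.14) and +409.5 kb (-0.35) for Bmp2, at -315.9 kb (-0.11) and +312.9 kb (0.92) for Bmp4, at -313.7 kb (0.31) and +316.4 kb (0.38) for Bmp7, and at -340.2 kb (-0.45) and +326.3 kb (-0.67) for Nog. The farthest peaks inside differed by -0.02 to 0.30. Within 100 kb of the starts or inside the genes, 7 peaks were lower and 4 were higher. This range held 32 peaks inside a gene or within 10 kb of a start. It also held 7 at 10 to 50 kb and 7 at 50 to 100 kb upstream, and 4 and 11 at those distances downstream. Over all peaks 8.31% were lower and 11.4% higher, and at gene starts 8.41% and 1.86%. The mix of peaks at and away from starts was not matched.

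The calls were compared with signal and with peak calling. Member peaks had a median rLog of 4.71, against 4.73 over all peaks, and none of the 134 had a mean above 8. Called lower peaks had a median of 4.69 and called higher peaks of 5.51. Of the 30 member peaks with a mean rLog of 5 to 6, 4 were lower and 5 were higher, while in the same range of all peaks 9.74% were lower and 19.7% higher. MACS2 had called 35 of the 134 in all 4 libraries (26.1%, beside 31.8% of all peaks), 8 in both WT libraries only (5.97%, beside 2.98%), 14 in both Hox13-/- libraries only (10.4%, beside 11.2%) and 43 in 1 library (32.1%, beside 34.6%). Of the 8 called in both WT libraries only, 6 were lower by limma, and of the 14 called in both Hox13-/- libraries only, 8 were higher. For all peaks called in the same 2 ways, 1250 of 1848 were lower and 3425 of 6937 were higher. The peak calls and the rLog values come from the same reads, so this is a description of the same measurement.

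**Figure D4:**
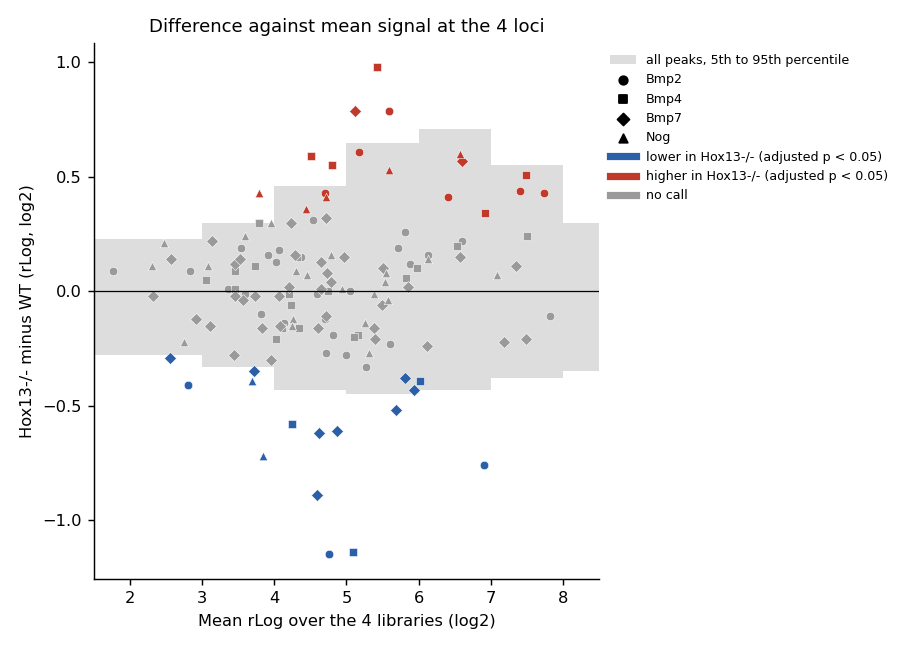
Difference in rLog (Hox13-/- minus WT) against mean rLog over the 4 libraries for the 134 peaks, with a marker shape for each locus and colour for the call. The grey band is the 5th to 95th percentile of all 61954 peaks in each range of mean rLog, for example -0.43 to 0.46 for means of 4 to 5. The 7 lower peaks beyond log2 of 1.5 lie below the band, while of the 6 higher ones Bmp2 +78.5 kb (0.61) and Nog -204.6 kb (0.60) lie inside it.

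Sequence words of the HOX motif were sought in the 200 bp around each midpoint, on both strands. With the shorter list of 3 words, 18 of the 134 windows held a word (13.4%, Wilson 95% interval 8.67 to 20.2), beside 9.7% of all peaks. By locus the share was 22.9% at Bmp2, 15.4% at Bmp4, 10.9% at Bmp7 and 3.7% at Nog. The words are rich in A and T, and the shares were not adjusted for base composition. The median GC of the peaks was 45.2%, 49.1%, 56% and 53.5% in the same order, beside 52.1% over all peaks. A word was held by 2 of 16 lower peaks and 5 of 18 higher peaks, and among all peaks by 17.5% of lower and 12.2% of higher ones. Of the 7 lower peaks beyond a fold change of 1.5, 0 held a word, whereas 28.3% of such peaks in the whole table did. The interval for 0 of 7 reached 35.4%, so a share like that of the table was within counting error. Taken over the whole peak, 1 of the 7 held a word, beside 40.2% in the table, and it was Bmp2 +114.6 kb with 2. Words stood in peaks without a call as well, such as Bmp2 +14.2 kb and Bmp7 +55.5 kb. With the 8 heptamers, 40 windows (29.9%) held a match, beside 21.5% of all peaks, and 1 of the 7 did, beside 51.6%. The words of the shorter list are part of the longer one. A match is a run of letters, and binding was not measured in these files.

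Other genes of the BMP pathway were read from the same fit at peaks inside them or within 50 kb of their start. Their 332 peaks, at 45 genes, held 36 lower (10.8%) and 25 higher (7.53%) peaks, beside 8.31% and 11.4% of all peaks, and the count of lower peaks was 16 without Hox13-/- replicate 1, 21 without Hox13-/- replicate 2 and 18 without WT replicate 2. The ligand genes had 2 lower (4.44%) and 1 higher (2.22%) of 45 peaks, both shares below those of all peaks. The lower ones were at Gdf6, a gene for a joint-forming ligand, where a peak at +13.5 kb fell from a mean of 5.73 to 5.02. The receptor genes had 2 higher (3.08%) and 11 lower (16.9%) of 65 peaks. Bmpr1b, the type I receptor of cartilage condensations, had 5 of the lower ones among its 26 peaks. The start sites of Bmpr1a (-0.34, limma adjusted p = 0.043), of the type II receptor Bmpr2 (-0.35, 0.03) and of the activin receptor Acvr2b (-0.45, 0.0037) were lower. Those of Acvr1 (-0.33), Acvr2a (-0.20), Bmpr1b (-0.00) and Acvrl1 (0.12) were not called. Over all peaks at gene starts 8.41% were lower and 1.86% higher.

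Among the secreted antagonists and modulators 8 peaks were lower and 9 higher of 78. Grem1, which encodes the main BMP antagonist of the limb bud, had 2 higher peaks of 4, that at -36.8 kb with means of 5.75 in WT and 6.19 in Hox13-/- (0.44, limma adjusted p = 0.006). Bmper, whose product binds BMPs outside the cell, had 4 higher and 2 lower of 12 peaks. The SMAD and SMURF genes and Bambi, which encodes a membrane protein, together had 7 lower (9.72%) and 4 higher (5.56%) of 72 peaks. Of these Bambi had 0 lower and 2 higher of 7, and the start of the inhibitory Smad6 was lower (-0.43). The target genes had 8 lower (11.1%) and 9 higher (12.5%) of 72 peaks, near the shares of all peaks. By gene, Msx1 had 3 higher and 0 lower of 10 peaks, Msx2 3 lower and 0 higher of 6, Id3 3 lower of 15 and Id4 3 higher of 7. Counts this small do not show that these genes differ from each other. A peak 49.7 kb from the start of Id1 rose by 0.94 (limma adjusted p = 4.1e-11).

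**Figure D5:**
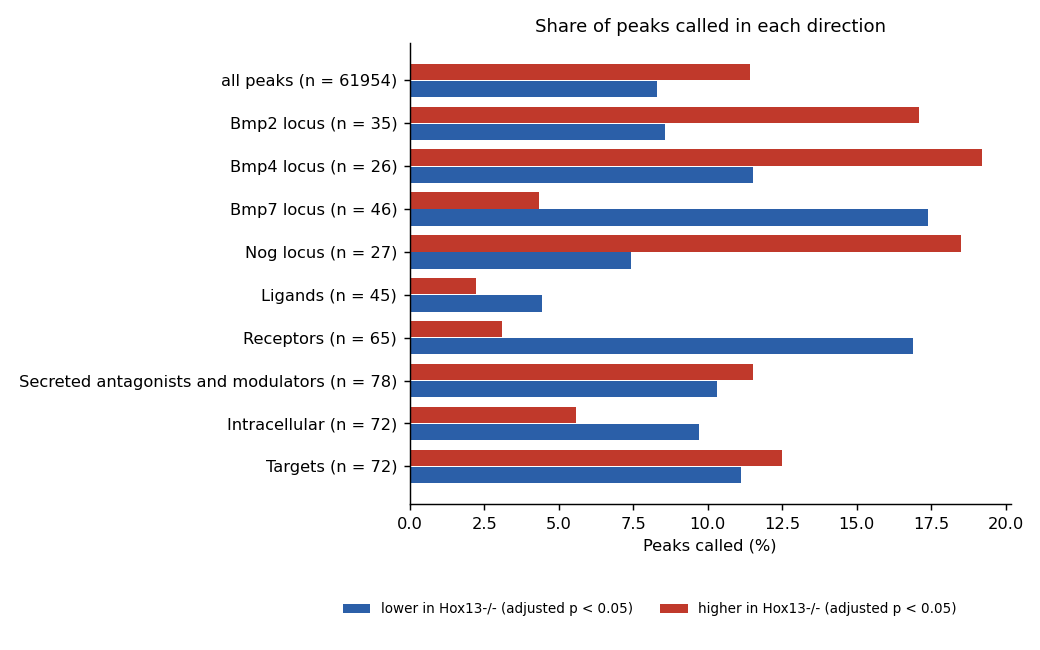
Percentage of peaks called lower (blue) and higher (red) in Hox13-/- by limma among all 61954 peaks, at each of the 4 loci, and at the other BMP pathway genes by role, with the number of peaks in parentheses. The Bmp7 locus (17.4% lower, 4.35% higher) and the receptor genes (16.9% lower, 3.08% higher) have more lower than higher peaks. All peaks have 8.31% and 11.4%, but peaks at gene starts have 8.41% and 1.86%, and under median centring lower calls outnumber higher ones over all peaks too. The group labelled intracellular holds the SMADs, the SMURFs and Bambi, which encodes a membrane protein. The shares were not tested against each other.

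The labelled tissue was checked at the start sites of marker genes. Peaks were present at 5 of 6 limb mesenchyme genes, where Twist1 was lower (-0.40) and the others had no call, at 3 of 3 distal limb genes (-0.26 to -0.01) and at 2 of 3 proximal limb genes (-0.07 to 0.00). Starts of ectoderm genes had peaks at 2 of 5, with rLog of 2.65 to 3.57, endothelium at 2 of 4 (Tek and Kdr, with rLog of 5.68 to 6.69, beside 5.57 to 7.10 at the mesenchyme starts), muscle precursors at 1 of 4 and blood at 0 of 3, of which Gata1 lies on X and the table holds only the 19 autosomes. None of these other cell type markers was called, and their part in the differences at the 4 loci was not tested.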

How the data were processed

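ATAC-seq was performed on 2 WT and 2 Hox13-/- distal forelimb libraries. The 2 proximal forelimb libraries of the series have no values in the table and were not analysed here. The authors called peaks in each library against an input with MACS2, merged them and wrote rLog values, a log2 scale, for each merged peak with HOMER and DESeq2. Per the submitters' processing notes the tools were Bowtie2 2.3.1, SAMtools 1.4.1, MACS2 2.1.1.20160309 and HOMER 4.9.1. The deposited text columns give the peak position, the libraries in which it was called (read here as a count of libraries) and an annotation. The deposited columns of the authors' own comparison (fold changes, p-values and adjusted p-values) were not used. Removal of duplicates, filtering of blacklisted regions and the Tn5 offset are not given in the sources used here. The shrinkage of rLog makes differences at peaks with few reads smaller. The table holds no counts, so the depth behind each peak is unknown and no interval for counting error can be given to it. The authors tested counts with DESeq2. On the deposited rLog values limma 3.58.1 (R 4.3.3) was used in its place, with a variance trend and no filter, and tested on simulated data. The 95% intervals of differences come from this fit and are not adjusted.

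Start sites and genes were those of GENCODE M21, and sequence was read from GRCm38.p6, whose chromosome ends contain all 61954 peaks. The peaks named were those within 1 kb of a start, the highest mean rLog of each locus, those called beyond a fold change of 1.5, the Bmp2 peaks at +41.9 and +114.6 kb, and the lowest p in each direction. The other called peaks and the +182.6 kb cluster of Bmp2 were named after their values were seen, as were the genes of the pathway list that are given values. The loci, lists and words were chosen with earlier results of these data known. The authors describe the wild-type ATAC-seq libraries as biological replicates. The p-values rest only on the spread between these 4 libraries, taken over peaks of like mean signal and not from the peak tested. Alternatives were median centring, quantile normalization, no variance trend, the upper 50% of peaks by mean rLog, fold thresholds, a limit of 100 kb, the replicate number as a block, each library left out, whole-peak words, and, added after seeing the data, a robust spread, the 8 heptamers and these fits at the pathway genes.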

Additional observations from a re-analysis of the deposited data

How the results depend on the processing

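None of the 34 calls at the 4 loci turned direction in the 10 refits. Of the 16 lower peaks 7 and of the 18 higher peaks 6 were called in every refit they entered, and of the 13 beyond a fold change of 1.5 the exceptions were Bmp4 -271.5 kb and Nog -204.6 kb. Median centring gave 19 lower and 16 higher peaks, which turned the balance of the 2 directions, and kept 16 of the lower and 16 of the higher calls. The calls kept were 16 and 17 under quantile normalization, 15 and 18 with no variance trend, and 16 and 18 with the robust spread, which was chosen after seeing the data. With fold thresholds of 1.5 and 2 the lower counts were 7 and 2 over the 4 loci, 1 at the second threshold at Bmp2, 1 and 1 at Bmp4, 3 and 0 at Bmp7, and 1 and 0 at Nog. The higher counts were 6 and 0 over the 4 loci, 2 and 0 at Bmp2, 2 and 0 at Bmp4, 1 and 0 at Bmp7, and 1 and 0 at Nog. Within 100 kb the lower and higher counts were 7 and 4 over the 4 loci, 1 and 3 at Bmp2, 1 and 0 at Bmp4, 5 and 0 at Bmp7, and 0 and 1 at Nog. When the upper 50% of peaks entered, fewer members were tested, and 8 peaks were lower over the 4 loci, 4 at Bmp7 and 0 at Nog, where 2 were higher. The share of windows with a word was 16.4% over the whole peak and 29.9% with the 8 heptamers.

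Leaving out 1 library at a time gave 11 to 13 lower and 10 to 15 higher peaks over the 4 loci, 2 to 4 and 2 to 6 at Bmp2, 1 to 2 and 2 to 5 at Bmp4, 4 to 6 and 2 at Bmp7, 1 to 2 and 1 to 4 at Nog, and 16 to 30 and 17 to 21 at the pathway genes. The library left alone in its genotype was then assumed to vary like the others. The replicate number as a block gave 16 lower and 18 higher peaks, and 36 and 26 at the pathway genes. The numbers share no animal, and the deviations of same-numbered libraries correlated at -0.011 across peaks, so they do not pair the samples.

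With 2 libraries per genotype, and a spread taken from the mean signal alone, a peak whose replicates disagree is judged by the spread of its neighbours in signal. The depth behind each peak is unknown, so what it limits cannot be stated. The cause of each lost call was not tested.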
